A study of Homo sapiens with 4 samples.

Results

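The spliceosome and splicing regulator genes described here were the protein-coding genes of the deposited expression table whose symbols begin with SNRP, with SF3A or SF3B and a digit, with LSM and a digit, with SRSF and a digit, or with HNRNP. They numbered 66 of the 33845 genes in the table, and 64 of them averaged 1 FPKM or more (a fragment number adjusted for gene length and library depth) over the 4 libraries and could be tested. By role they comprised 7 Sm genes, 8 genes of the LSm rings (LSM1 to LSM8), 5 other LSM genes, 4 genes for proteins particular to the U1 or U2 snRNP, 9 SF3A and SF3B genes, 12 SRSF genes and 21 HNRNP genes. The Sm and LSm ring genes are called the core below, and the SRSF and HNRNP genes are called the regulators.

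Introns are removed by the spliceosome, which is assembled on each transcript from small nuclear ribonucleoproteins (snRNPs), particles of a small nuclear RNA and proteins. Sm proteins form a ring around the U1, U2, U4 and U5 RNAs, a ring of LSm proteins binds U6 RNA, and the SF3A and SF3B complexes help the U2 snRNP to hold the branch point. SRSF (serine and arginine rich) proteins and HNRNP proteins bind the transcript itself and influence which splice sites are used, and SRSF genes are known for alternative exons that send part of their own transcripts to nonsense-mediated decay.

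SW620 is an established line of colorectal cancer cells from a metastasis in a lymph node, and GAP43 is a protein of the inner cell membrane that neurons use in axon growth. GAP43 overexpressed SW620 cells, carrying a stably transfected Flag-GAP43 plasmid, gave 2 libraries, and control SW620 cells gave the other 2. The labels say that the controls carried control plasmids, and all cells were at passages 12 to 15 in RPMI medium with fetal calf serum. The study's methods state that the GAP43 plasmid confers neomycin resistance, and whether the controls were selected as well is not given in the sources used here. No source says whether the libraries of a group came from separate cultures or clones, so p-values measure only the spread between these libraries, which may be technical. In such bulk samples, fewer cells of a kind and less RNA per cell cannot be told apart.

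GAP43 itself stood at 4.40 and 4.14 FPKM in the controls and at 16.3 and 9.89 FPKM after transfection, with no overlap between the groups. Libraries held 17473071 to 21883137 fragments, the fewest in GAP43 replicate 2, whose summed FPKM was also the lowest, at 264760 against 288130 to 307463 in the other libraries. The FPKM were scaled to a depth other than these fragment totals, so FPKM and fragments over the library total give different counts. On the FPKM scale GAP43 replicate 2 stood apart for the splicing genes. It held the lowest of the 4 values for 53 of the 64 tested members (82.8%), and for 43.8% of all genes tested. Results are therefore given for each GAP43 library on its own as well as together. All 8 colorectal epithelium markers were expressed, whereas of the fibroblast, leukocyte and endothelium markers only LUM and LYZ reached a mean of 1 FPKM, and the GAP43 libraries overlapped the controls for both.

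Promoter sequences are shown because 1 short sequence was more frequent in the windows of Sm, U1, U2 and SF3 genes than in those of the other groups. RefSeq windows on GRCh38.p14 from 250 bases before to 50 bases after the start were found for 60 of the 66 members. The letters CCGGAAG, the core of sites bound by ETS family factors, were searched on both strands and were present in 4 of 6 Sm windows (66.7%), 3 of 4 U1 and U2 windows (75%) and 6 of 8 SF3A and SF3B windows (75%). They were present in 2 of 6 LSm ring windows (33.3%), 0 of 4 windows of the other LSM genes, 2 of 11 SRSF windows (18.2%) and 3 of 21 HNRNP windows (14.3%). Over all members this came to 20 of 60 windows (33.3%), beside 12.8% of 22199 protein-coding windows and 10.3% of all 35116 windows. The letters CACGTG, the E-box bound by MYC family factors, were held by 7 of 21 HNRNP windows (33.3%), by 0 of 6 Sm windows and by 8.34% of protein-coding windows. Of the other letters searched on both strands, the CCAAT box (CCAAT) was in 26 of the 60 member windows (43.3%, against 34.7% of protein-coding windows), the TATA box (TATAAA) in 6 (10.0% against 9.47%), the GC box of SP and KLF factors (GGGCGG) in 40 (66.7% against 56.3%), the YY1 core (AAGATGGC) in 4 (6.67% against 3.53%) and the NRF1 letters TGCGCA in 10 (16.7% against 9.88%). Some of these also differed between groups. The YY1 core was in 3 of 8 SF3A and SF3B windows (37.5%), 1 of 6 LSm ring windows and 0 of 21 HNRNP windows. CCAAT was in 14 of 21 HNRNP windows (66.7%) and 2 of 11 SRSF windows (18.2%). A match of letters is a description and was not tested as a site of binding.

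The stretches around the ETS letters are printed below in the direction of the gene, 5′ to 3′, with the core in capitals as CCGGAAG or, where it lies on the other strand, as CTTCCGG. They are those of the 4 Sm genes, of the 3 U1 and U2 genes, of SF3B4, and of the 2 SRSF genes that hold it.
SNRPB, chr20:2470807-2470847, minus strand: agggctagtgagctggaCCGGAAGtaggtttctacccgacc
SNRPD2, chr19:45692356-45692396, minus strand: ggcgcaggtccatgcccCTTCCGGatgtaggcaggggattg
SNRPE, chr1:203861597-203861629, plus strand: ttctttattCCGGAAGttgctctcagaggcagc
SNRPG, chr2:70293485-70293525, minus strand: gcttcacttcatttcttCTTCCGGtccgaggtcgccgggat
SNRPA1, chr15:101295338-101295378, minus strand: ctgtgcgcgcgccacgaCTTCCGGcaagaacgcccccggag
SNRPB2, chr20:16729914-16729954, plus strand: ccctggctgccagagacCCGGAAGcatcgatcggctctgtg
SNRPC, chr6:34757277-34757317, plus strand: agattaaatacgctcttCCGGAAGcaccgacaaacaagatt
SF3B4, chr1:149927806-149927846, minus strand: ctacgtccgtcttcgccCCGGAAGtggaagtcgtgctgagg
SRSF4, chr1:29182118-29182150, minus strand: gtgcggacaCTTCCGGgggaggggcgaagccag
SRSF5, chr14:69767068-69767108, plus strand: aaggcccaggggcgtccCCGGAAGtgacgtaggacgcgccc

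The place of the core differed between these genes. Its first base lay at position -41 from the RefSeq start of SNRPB, -63 for SNRPD2, -50 for SNRPG and -26 for SF3B4, and farther away, at -241, for both SNRPE and SRSF4. SNRPB2 held a second copy at -22, and in SNRPC copies on both strands overlapped. The RefSeq start and the gene start of the deposited table were 64 bases apart for SNRPB, 244 for SNRPE and 40242 for SRSF5. The SNRPE core thus lay close to the gene start of the deposited table. The window need not be the start used in these cells.

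On the FPKM scale, Sm genes and most LSm ring, U1, U2 and SF3 genes had both GAP43 libraries below both controls, and SRSF genes were split. Both GAP43 libraries were below both control libraries for 43 of the 64 tested members (67.2%), against 24.1% of all 13507 genes tested, and above both for 3 members, against 17.1% of all genes. Among other protein-coding genes of like level this share was higher than among all genes, at 54.0% from 30 to 100 FPKM and 67.8% at 100 FPKM or more, and for the members of these levels it was 74.3% (35 genes) and 90.0% (10 genes). On fragments recovered from the FPKM and divided by the total of their library, 28 members were below, against 14.3% of all genes, and 7 above, against 27.4%. By this measure, most LSm ring genes and most SF3A and SF3B genes were not below both controls. At an unadjusted p under 0.05 in limma, 1 member was lower (LSM6), against 2.84% of all genes, and 0 were higher, against 3.05%. Without GAP43 replicate 1, 35 members were lower and 1 (SRSF5) was higher, but 18.6% of all genes were then lower and 11.6% higher, and without any of the other libraries in turn 0 members passed. With 1 library left out, a group holds a single library, which is assumed to vary like those of the other group. No member had an adjusted p under 0.05 in limma, the lowest being 0.692, which was also the lowest among all genes tested. The smallest p that an exact permutation test of 2 against 2 libraries can give is 0.333, so single members cannot pass such a test in this design.

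The median log2 fold change of the 64 members was -0.26 on the log2(FPKM + 1) scale, on which all fold changes are given, and that of all genes tested was -0.038. By group the medians were -0.51 for the Sm genes, -0.39 for the LSm rings, -0.36 for the U1 and U2 proteins, -0.28 for SF3A and SF3B, -0.24 for HNRNP, -0.22 for the other LSM genes and 0.010 for SRSF. Voom on recovered fragments, which moved the median of all genes to 0.10, gave -0.36, -0.25, -0.21, -0.14, -0.096, -0.079 and 0.16 in the same order of groups. In GAP43 replicates 1 and 2 on their own, the medians were -0.23 and -0.84 for Sm, -0.10 and -0.60 for the LSm rings, -0.21 and -0.53 for U1 and U2, -0.12 and -0.45 for SF3A and SF3B, -0.092 and -0.38 for HNRNP, -0.13 and -0.44 for the other LSM genes and -0.036 and -0.073 for SRSF. The order of the LSm ring, U1, U2 and SF3 groups thus differed between these libraries. The order of the core and the regulators was the same in each GAP43 library set alone against the mean of the controls: the core had medians of -0.18 in replicate 1 and -0.71 in replicate 2, and the regulators -0.071 and -0.26. Of the 64 members, 47 were below the control mean in both GAP43 libraries, 5 were above it in both, and 12 had opposite signs.

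**Figure D1:**
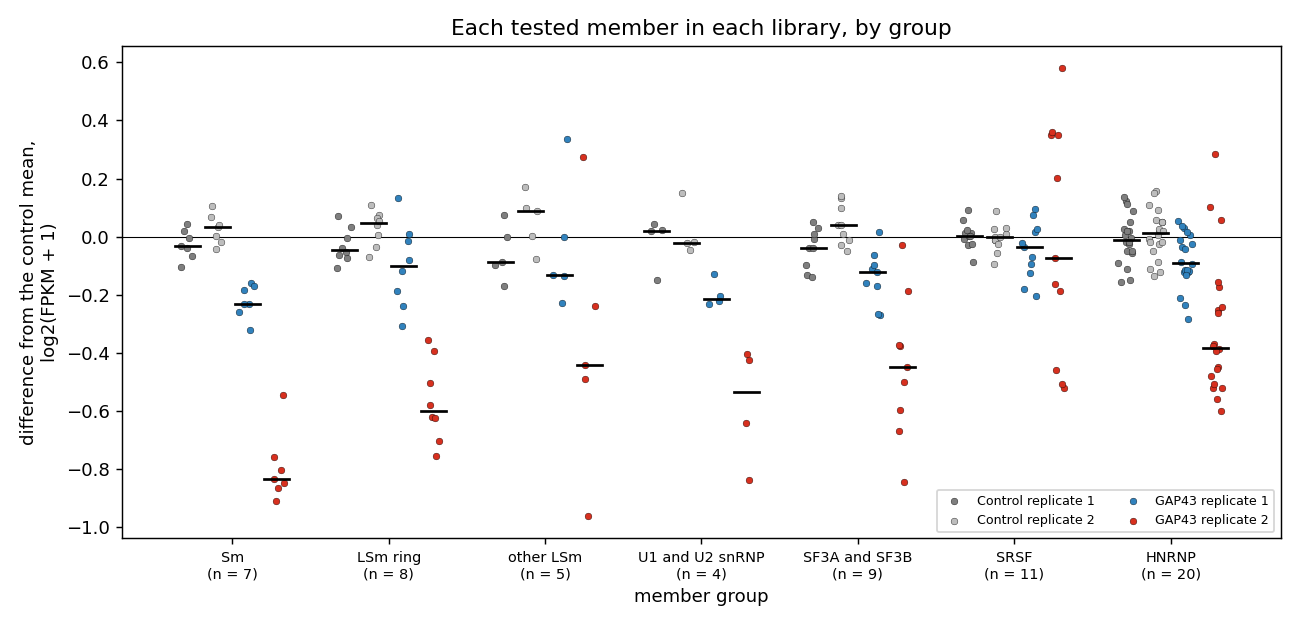
Each point is 1 tested member in 1 library, plotted as its difference from the mean of the control libraries in log2(FPKM + 1), by member group; colours mark the 4 libraries and black bars the median of the group in that library. The 7 Sm genes were below the control mean in both GAP43 libraries, at medians of -0.23 and -0.84, whereas the 11 SRSF genes lay on both sides of it.

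All 7 Sm genes had both GAP43 libraries below both control libraries, and 0 of the 7 passed an unadjusted p of 0.05. The share below was 24.1% over all genes tested and 67.8% among other protein-coding genes at 100 FPKM or more. SNRPE (ENSG00000182004, chromosome 1 from 203861603 to 203870550 on GRCh38), the Sm E protein, had 148 and 155 FPKM in the controls against 121 and 82.6 FPKM, a log2 fold change of -0.60 (SE 0.26, unadjusted p = 0.060 in limma). SNRPF, the Sm F protein, had 58.1 and 54.6 FPKM against 47.8 and 29.5 FPKM, a log2 fold change of -0.57 (SE 0.27, unadjusted p = 0.074 in limma). For both genes the lower control library was above the higher GAP43 library, and GAP43 replicate 2 was the lowest by the larger margin.

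SNRPG, the Sm G protein, had 121 and 128 FPKM in the controls against 104 and 70.9 FPKM, a log2 fold change of -0.53 (SE 0.26). SNRPD2, the Sm D2 protein, had 173 and 190 FPKM against 160 and 101 FPKM (-0.51, SE 0.29). SNRPB, which encodes the Sm B and B′ proteins and was the highest of the snRNP genes, had 356 and 412 FPKM against 343 and 212 FPKM (-0.50, SE 0.32). The gap between GAP43 replicate 1 and the nearest control library was narrow for SNRPB, and the controls themselves differed by more than that gap.

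The remaining Sm genes are members too, but were not among those picked by p or level, and are given to complete the ring. SNRPD1 had 30.2 and 29.4 FPKM in the controls against 26.4 and 17.2 FPKM, and SNRPD3 had 60.3 and 60.6 FPKM against 51.3 and 41.0 FPKM. The members of the ring kept nearly the same proportions in every library. SNRPB made up 37.6% to 40.2% of the summed Sm FPKM, SNRPD2 18.3% to 18.7%, SNRPE 14.2% to 15.7%, SNRPG 12.2% to 12.8%, SNRPD3 5.88% to 7.40%, SNRPF 5.30% to 6.13% and SNRPD1 2.85% to 3.19%. The summed level was 947 and 1030 FPKM in the controls, 853 FPKM in GAP43 replicate 1 and 555 FPKM in replicate 2, which is 0.863 and 0.561 of the control mean. SNRPG, SNRPE and SNRPF have 10, 3 and 3 pseudogene rows in the table, the highest of them at a mean of 39.3, 5.06 and 0.894 FPKM, and how fragments shared with these copies were counted is not given in the sources used here.

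**Figure D2:**
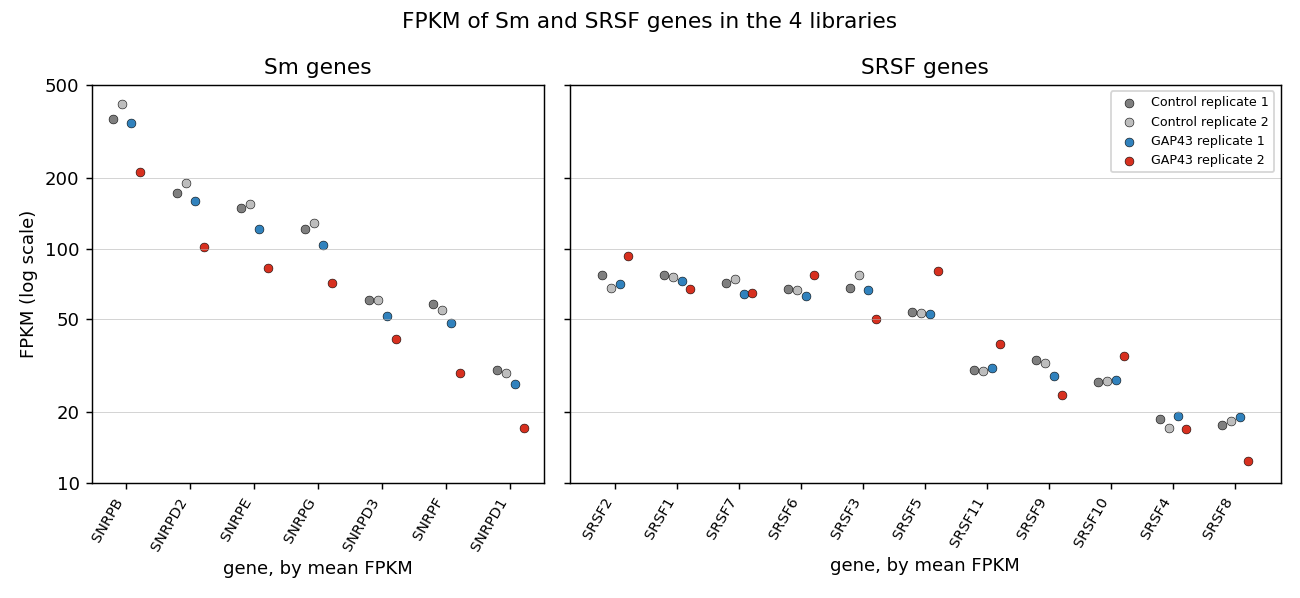
FPKM of the 7 Sm genes (left) and the 11 tested SRSF genes (right) in the 4 libraries, 1 point per library, on a log axis, with genes ordered by mean FPKM. For every Sm gene the red point of GAP43 replicate 2 is the lowest, from 212 FPKM for SNRPB to 17.2 FPKM for SNRPD1, whereas for SRSF2 and SRSF5 it is the highest, at 92.5 and 80.1 FPKM.

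The LSm rings resembled the Sm ring in GAP43 replicate 2, where all 8 genes were the lowest of the 4 libraries (median -0.60), and less so in replicate 1 (median -0.10, with 2 genes above the control mean). LSM6 (ENSG00000164167, chromosome 4 from 146175685 to 146200000), a subunit of both the U6-bound ring and the cytoplasmic ring that takes part in mRNA decay, had 17.2 and 16.4 FPKM in the controls against 13.4 and 10.6 FPKM, a log2 fold change of -0.47 (SE 0.18, unadjusted p = 0.044 and adjusted p = 0.692 in limma). LSM7, another subunit of both rings, had 90.0 and 98.3 FPKM against 79.5 and 60.6 FPKM (-0.43, SE 0.23). LSM4 had 65.0 and 58.9 FPKM against 54.3 and 41.1 FPKM (-0.38, SE 0.22). On the FPKM scale, both GAP43 libraries were below both controls for these 3 genes. In the whole ring this held for 6 of 8 genes (75.0%, against 24.1% of all genes tested). On fragments over the library total, LSM4 overlapped the controls, as did LSM1 and LSM2. LSM6 had the smallest p of all members, and it no longer passed without Control replicate 1 (log2 fold change -0.43), Control replicate 2 (-0.50) or GAP43 replicate 2 (-0.31). Nor did it pass with a constant prior variance (unadjusted p = 0.053 in limma), FPKM divided by its sum (0.070), the replicate block (0.083) or voom (0.10). The genes LSM2, LSM3 and LSM5, given to complete the ring, had log2 fold changes of -0.26, -0.39 and -0.19.

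The subunits that tell both rings apart, LSM1 of the cytoplasmic ring and LSM8 of the nuclear ring, were both low, and were chosen here for that role after their values were seen. LSM1 had 9.20 and 10.9 FPKM in the controls against 9.12 and 5.52 FPKM. LSM8 had 6.81 and 7.39 FPKM against 7.87 and 5.32 FPKM, so its GAP43 libraries lay on both sides of the controls.

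LSM10 and LSM11 are the subunits that replace Sm D1 and Sm D2 in the U7 snRNP, which processes histone transcripts, and they lay on opposite sides of the controls. LSM10 had 25.7 and 29.7 FPKM in the controls against 23.5 and 13.7 FPKM, a log2 fold change of -0.60 (SE 0.27, unadjusted p = 0.071 in limma). LSM11, singled out here after its values were seen, had 2.35 and 2.01 FPKM against 3.01 and 2.84 FPKM (0.31, SE 0.18), and was the only LSM gene with both GAP43 libraries above both controls. LSM11 was the lowest of the tested members by mean FPKM. The remaining genes of this group, LSM12, LSM14A and LSM14B, whose products act on mRNA in the cytoplasm, stood at -0.31, -0.22 and -0.19.

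All 4 genes for U1 and U2 snRNP proteins had both GAP43 libraries below both controls on the FPKM scale, at medians of -0.21 and -0.53 in replicates 1 and 2. The share below was 24.1% over all genes tested and 54.0% among other protein-coding genes from 30 to 100 FPKM. On fragments over the library total, SNRPC overlapped the controls. SNRPB2, the U2 B″ protein, had 55.8 and 68.7 FPKM in the controls against 52.9 and 34.2 FPKM, a log2 fold change of -0.53 (SE 0.27). SNRPA1, the U2 A′ protein that pairs with it, had 37.0 and 34.7 FPKM against 30.3 and 26.5 FPKM (-0.33, SE 0.18). Of the U1 proteins, SNRPA, the U1 A protein, had 44.8 and 43.7 FPKM against 38.2 and 33.2 FPKM (-0.31, SE 0.19), and SNRPC, the U1 C protein, had 75.2 and 72.9 FPKM against 67.6 and 47.0 FPKM (-0.39, SE 0.24).

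SF3A and SF3B proteins bind the U2 snRNP at the branch point. On the FPKM scale, 8 of their 9 genes had both GAP43 libraries below both controls (88.9%). This held for 24.1% of all genes tested and for 54.0% of other protein-coding genes from 30 to 100 FPKM. On fragments over the library total, SF3A2, SF3A3, SF3B2 and SF3B3 overlapped the controls, as did SF3B1. At an unadjusted p of 0.05, 0 passed. SF3B6, the subunit that contacts the branch point adenosine, had 71.0 and 81.5 FPKM in the controls against 67.6 and 41.9 FPKM (-0.51, SE 0.28). SF3B5, a small subunit, had 168 and 205 FPKM against 154 and 123 FPKM (-0.43, SE 0.25). SF3B4 had 41.6 and 39.9 FPKM against 33.6 and 28.5 FPKM, a log2 fold change of -0.38 (SE 0.19, unadjusted p = 0.087 in limma).

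All 3 SF3A genes had log2 fold changes between -0.17 (SF3A2) and -0.38 (SF3A3). The large subunits SF3B3 and SF3B1 lay closer to the controls than SF3B4, SF3B5 and SF3B6, a difference that was not tested. SF3B3 had 79.6 and 78.4 FPKM in the controls against 72.6 and 60.8 FPKM (-0.25, SE 0.21). SF3B1 is named here because it is the only gene of this group without a gap between the groups on the FPKM scale. It encodes the subunit that is often mutated in blood cancers. SF3B1 had 33.0 and 39.8 FPKM against 36.7 and 35.5 FPKM (-0.0073, SE 0.19), both GAP43 values lying between the controls.

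SRSF genes were not moved in 1 direction. Of the 11 tested, 4 had both GAP43 libraries below both controls on the FPKM scale (36.4%, against 24.1% of all genes tested). For 2 (SRSF10 and SRSF11) both were above (18.2%, against 17.1% of all genes), and 5 overlapped. At an unadjusted p of 0.05, 0 passed in either direction. SRSF12 was listed at 0 FPKM in all 4 libraries. On the FPKM scale, GAP43 replicate 2 was the lowest library for 5 of the 11 genes (45.5%, against 43.8% of all genes tested). It was the highest for another 5 (45.5%, against 31.3% of all genes). Among the core genes it was the lowest for 15 of 15.

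SRSF5, also known as SRp40, had 53.7 and 52.9 FPKM in the controls, 52.5 FPKM in GAP43 replicate 1 and 80.1 FPKM in replicate 2, a log2 fold change of 0.28 (SE 0.25). SRSF2, also known as SC35 and a marker of nuclear speckles, had 77.3 and 67.8 FPKM against 70.6 and 92.5 FPKM (0.16, SE 0.23). For both genes the excess stood in replicate 2 alone, and without that library the log2 fold changes were -0.022 and -0.036. SRSF10 and SRSF11 are named after their values were seen. SRSF10 had 26.9 and 27.3 FPKM against 27.4 and 34.8 FPKM and SRSF11 had 30.2 and 30.1 FPKM against 30.8 and 39.0 FPKM, so both cleared the controls by little in replicate 1.

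Other SRSF genes were on the lower side. SRSF9 had 33.5 and 32.3 FPKM in the controls against 28.4 and 23.7 FPKM, a log2 fold change of -0.33 (SE 0.19). SRSF3, the smallest SR protein, had 68.1 and 77.2 FPKM against 66.4 and 50.2 FPKM (-0.32, SE 0.23). SRSF1, also known as ASF/SF2, had 76.9 and 75.6 FPKM against 72.6 and 66.9 FPKM (-0.13, SE 0.20), a difference below its standard error whose sign turned (0.021) in a fit on recovered fragments. On the FPKM scale SRSF7 was lower in both GAP43 libraries (-0.17), and SRSF4, SRSF6 and SRSF8 overlapped the controls, at 0.010, 0.054 and -0.22. On fragments over the library total, the GAP43 libraries lay on both sides of the controls for SRSF7. SRSF2 overlaps MFSD11 on the opposite strand by 1510 bases and SRSF9 overlaps GATC by 2082 bases, and since the strand setting is not given in the sources used here, reads of such pairs cannot be told apart.

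HNRNP genes lay between the core and the SRSF genes. Of the 20 tested, 12 had both GAP43 libraries below both controls on the FPKM scale, 0 had both above and 8 overlapped. Over all genes tested, 24.1% were below and 17.1% above. Among other protein-coding genes from 30 to 100 FPKM, 54.0% were below. Of the 20 HNRNP genes, 0 passed an unadjusted p of 0.05. The readthrough gene HNRNPUL2-BSCL2 did not reach 1 FPKM and had 0.0237, 0.0388, 0 and 0.0512 FPKM in the 2 control and 2 GAP43 libraries.

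HNRNPAB had 189 and 160 FPKM in the controls against 143 and 114 FPKM, a log2 fold change of -0.44 (SE 0.24, unadjusted p = 0.116 in limma). HNRNPK, a poly(C) binding protein, had 138 and 170 FPKM against 129 and 106 FPKM (-0.38, SE 0.24). HNRNPC, which binds uridine tracts and competes with the U2AF factor, had 119 and 148 FPKM against 115 and 95.1 FPKM (-0.35, SE 0.24). In these genes the controls differed from each other by as much as the nearest GAP43 library differed from them, or more.

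HNRNPF, which binds G tracts, had 163 and 175 FPKM in the controls against 156 and 129 FPKM (-0.25, SE 0.23). HNRNPA2B1, the most highly expressed regulator reported here, had 260 and 267 FPKM against 257 and 283 FPKM, a log2 fold change of 0.032 (SE 0.24), so its FPKM spanned a narrow range. Voom on recovered fragments gave 0.19 for this gene. On fragments over the library total, both of its GAP43 libraries were above both controls, replicate 1 by little. HNRNPA2B1 shares 368 bases with CBX3 on the opposite strand, which had a mean of 95.9 FPKM. The other tested HNRNP genes ran from -0.34 for HNRNPA3 to 0.17 for HNRNPH1, both named after their values were seen. HNRNPH1 had 75.8 and 67.0 FPKM in the controls against 74.0 and 86.9 FPKM. Of all members, 16 overlapped such an opposite-strand gene that averaged 1 FPKM or more.

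The balance between groups was also compared within each library, where the scaling of the library cancels. Summed SRSF FPKM was 541 and 540 in the controls, 513 in GAP43 replicate 1 and 558 in replicate 2, so it was 0.950 and 1.03 of the control mean. Summed HNRNP FPKM was 1746 and 1791 against 1633 and 1437. The ratio of summed Sm to summed SRSF levels was 1.75 and 1.91 in the controls, 1.66 in GAP43 replicate 1 and 0.993 in replicate 2, and that of the LSm rings to SRSF was 0.515 and 0.531 against 0.496 and 0.332. Core over regulators gave 0.536 and 0.565 against 0.516 and 0.371. Every one of these ratios was lower in both GAP43 libraries than in both controls, but in replicate 1 the distance to the nearest control was smaller than the distance between the controls for Sm over SRSF and for core over regulators.

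**Figure D3:**
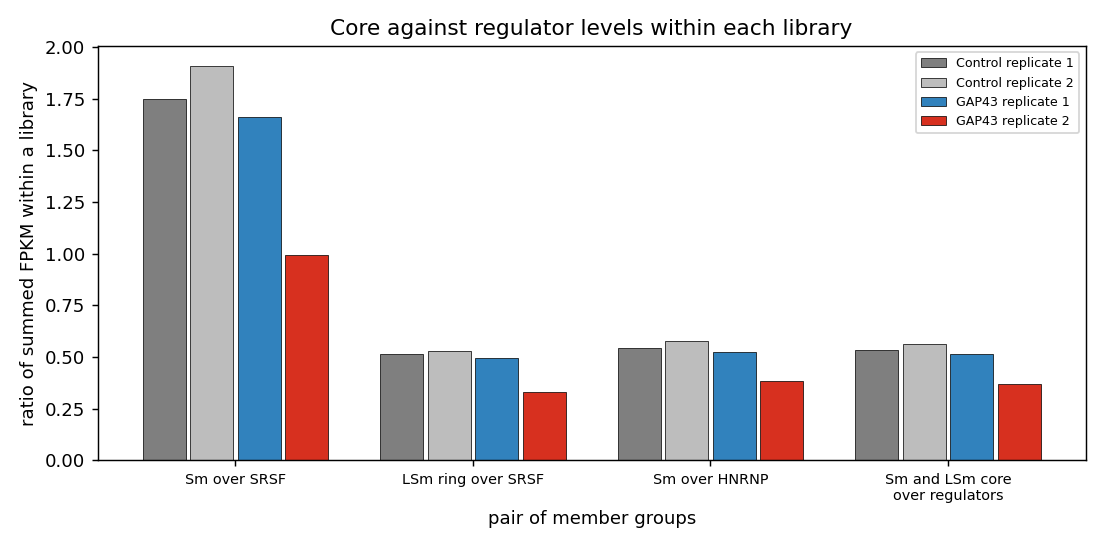
Ratios of summed FPKM between member groups within each library, as bars from 0, for the 4 libraries. The Sm over SRSF ratio was 1.75 and 1.91 in the controls, 1.66 in GAP43 replicate 1 and 0.993 in GAP43 replicate 2, and the other 3 ratios had the same order of control and GAP43 libraries.

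The position of the members among genes of like level was then described, because abundant protein-coding genes were lower in the GAP43 libraries in general. Among protein-coding genes outside the member set, the median log2 fold change was -0.0044 at a mean of 1 to 10 FPKM (6247 genes), -0.15 at 10 to 30 FPKM (3006 genes), -0.27 at 30 to 100 FPKM (1064 genes) and -0.44 at 100 FPKM or more (311 genes). Core genes lay below these medians at each level, at -0.27 (2 genes), -0.43 (4 genes), -0.39 (5 genes) and -0.52 (4 genes). The regulators stood at -0.083 (2 genes), -0.11 (5 genes), -0.15 (19 genes) and -0.35 (5 genes), below the median of other genes at 1 to 10 FPKM and above it at the other levels. All members together stood at -0.11 (5 genes), -0.25 (14 genes), -0.26 (35 genes) and -0.44 (10 genes), so that from 30 FPKM on their medians were close to those of other genes of like level. SNRPE, SNRPG, SNRPD2 and SNRPB, at 100 FPKM or more, thus differed from other abundant genes by less than from genes at large.

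**Figure D4:**
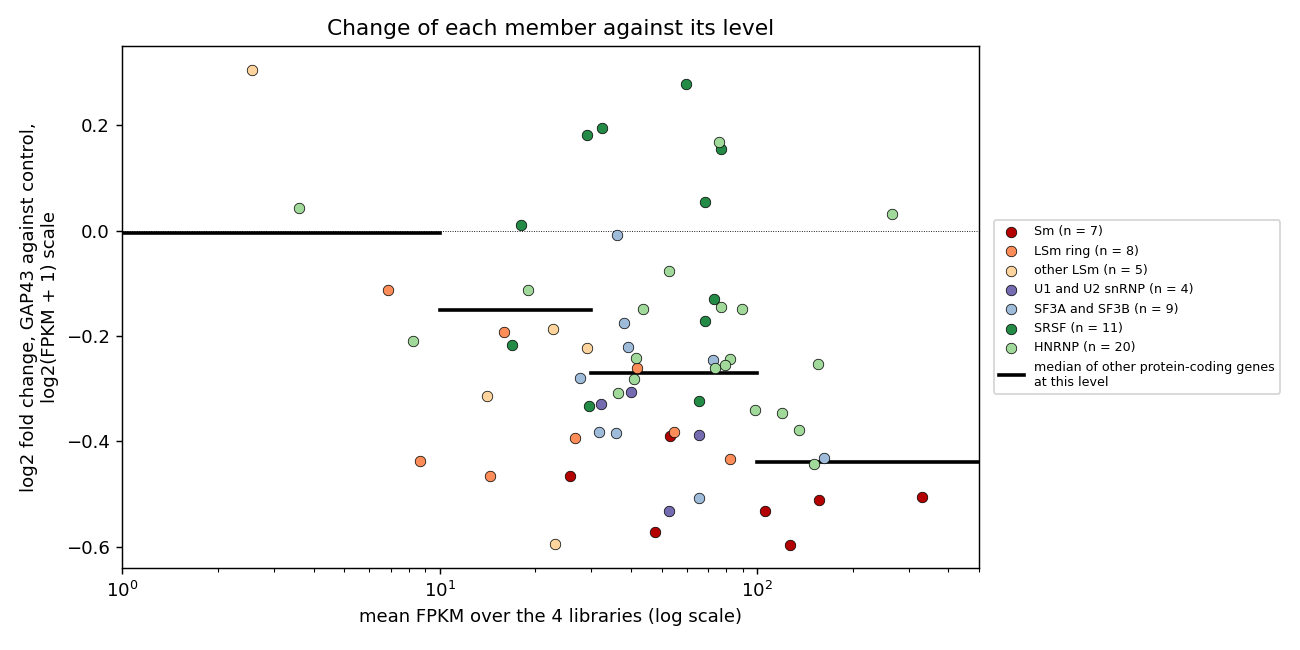
Log2 fold change (GAP43 against control, log2(FPKM + 1) scale) of each of the 64 tested members against its mean FPKM over the 4 libraries (log axis), coloured by group; horizontal black lines are the median of the other protein-coding genes at that level. The Sm genes lie below the line of their level, and HNRNPA2B1, SRSF2 and SRSF5 lie above it.

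The groups also differ in the length of their genes, which moved with the change. Median gene model length was 1795 bases for Sm, 2817 for the LSm rings, 4570.5 for SRSF and 5923 for HNRNP genes, and median coding length was 357, 297, 784.5 and 1303.5 bases. Across the 64 members, log2 gene model length and log2 fold change had r = 0.56 (Spearman's rho 0.59), and across 10628 other protein-coding genes r = 0.18. These points are genes of the same 4 libraries and not independent replicates. Among other protein-coding genes averaging 30 FPKM or more, the median log2 fold change was -0.43 below 1500 bases, -0.36 from 1500 to 3000, -0.28 from 3000 to 6000 and -0.15 from 6000 bases on. Core genes of the first 3 of these classes stood at -0.50 (3 genes), -0.47 (4 genes) and -0.48 (2 genes). Regulators stood at -0.26 from 1500 to 3000 bases (2 genes), -0.15 from 3000 to 6000 (10 genes) and -0.26 from 6000 bases on (12 genes), so the longest of them lay below other genes of that length. The part of length in the group differences was not tested.

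GENCODE annotates transcripts subject to nonsense-mediated decay for 12 of 12 SRSF genes, 13 of 21 HNRNP genes, 5 of 8 LSm ring genes and 2 of 7 Sm genes, and transcripts with a retained intron for 9, 13, 4 and 3 of them. The gene-level FPKM add all transcripts of a gene, so levels of the coding form and of these forms cannot be told apart here.

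Other splicing genes, grouped by role from general knowledge, gave a similar picture for snRNP proteins and their assembly. Over all genes tested, 24.1% had both GAP43 libraries below both controls and 17.1% had both above. At an unadjusted p under 0.05 in limma, 2.84% of all genes were lower and 3.05% higher. Of 16 tested tri-snRNP and U5 proteins, 10 had both GAP43 libraries below both controls and 0 above, with a median log2 fold change of -0.28 and 0 calls at an unadjusted p under 0.05 in either direction. Of 14 tested genes for snRNP assembly, 7 were below and 0 above, with a median of -0.28. PRMT5, the methyltransferase that modifies Sm proteins, had 19.4 and 20.9 FPKM in the controls against 14.8 and 12.8 FPKM, a log2 fold change of -0.51 (SE 0.17, unadjusted p = 0.025 and adjusted p = 0.692 in limma). CLNS1A, its partner pICln that holds Sm proteins before assembly, had 32.6 and 36.8 FPKM against 26.7 and 23.5 FPKM (-0.45, SE 0.19, unadjusted p = 0.050 in limma, just under the threshold). PRMT5 and CLNS1A were the only assembly genes that passed it, and in both the gap between the groups was wider than the distance between the controls.

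In the exon junction complex, which marks spliced junctions, 5 of 5 genes had negative log2 fold changes, as had 7492 of all 13507 genes tested. The median of the 5 genes was -0.40. MAGOHB had 11.4 and 12.5 FPKM in the controls against 9.61 and 6.33 FPKM (-0.56, SE 0.22, unadjusted p = 0.043 in limma). Of 15 tested U1 and U2 associated factors outside the naming rule, 5 were below (33.3%, against 24.1% of all genes). Above were 2 (13.3%, against 17.1% of all genes), and the median was -0.056. PHF5A, a small subunit of SF3B, was the 1 of these that passed, with 44.4 and 48.9 FPKM against 35.5 and 30.8 FPKM (-0.48, SE 0.19, unadjusted p = 0.044 in limma). Prp19 complex and catalytic step factors had a median of -0.15 over 21 genes, with 8 below (38.1%) and 0 above, and 0 passed.

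Kinases and the importer of SR proteins were split, with a median log2 fold change of 0.19 over 8 genes. Both GAP43 libraries were above both controls for 5 of them (62.5%, against 17.1% of all genes tested), the kinases CLK1, CLK2, CLK3, CLK4 and DYRK1A. The kinase SRPK1 was below (-0.29), and the kinase SRPK2 (-0.17) and the importer TNPO3 (-0.15) had negative values with overlap. None passed an unadjusted p of 0.05 in limma. CLK1, a kinase that phosphorylates SR proteins and is named here after its values were seen, had 8.99 and 12.2 FPKM in the controls against 12.2 and 22.3 FPKM, a log2 fold change of 0.61 (SE 0.30). GAP43 replicate 1 was barely above the higher control, and most of the difference stood in replicate 2.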

How the data were processed

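RNA-seq of 2 GAP43 and 2 control SW620 libraries was used. Per the labels, poly(A) RNA was selected, reverse transcribed from random primers and sequenced from both ends. The authors deposited 1 FPKM value per gene and library, a fragment number scaled to gene model length and library. TopHat2 2.0.13, Cufflinks 1.1, Cuffdiff and hg19 appear in the submitters' processing notes. Which tool counted, on which annotation and with which strand setting is not given in the sources used here. Positions matched GRCh38: 33057 gene IDs were in GENCODE release 29, 96.4% with the same start, and so were all 66 members, 63 with the same start.

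Genes averaging 1 FPKM or more (13507, of which 10692 protein-coding) were compared as log2(FPKM + 1) with limma 3.58.1 (trended prior variance, 2-sided, Benjamini-Hochberg adjustment over all genes tested) in R 4.3.3. Other steps used Python 3.11.15, pandas 2.3.3 and matplotlib 3.10.9. The test was tried on simulated data. Whole fragments were recovered from FPKM and gene length for 100% of values within 0.01, and tested members had 182 to 42726 fragments per library (median 3662). Without molecular identifiers, fragments can be PCR copies of 1 molecule.

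Members and lists were chosen with earlier results of these data known. Genes named are those with an unadjusted p under 0.05, the 3 with the smallest p and the 2 with the highest mean FPKM of each group, and members under 1 FPKM. Other genes named, and values given to complete a group, were chosen after the values were seen. From the lists of other splicing genes, those with an unadjusted p under 0.05 are named. One HNRNP gene is not reported here. Promoters and their letters are from RefSeq, GRCh38.p14. Same-numbered libraries were checked for pairing (deviations from the group means had r = -0.16 over 13507 genes). With 2 libraries per group this cannot exclude that same-numbered libraries were prepared together, and the main fit used no pairing. Alternatives were other pseudocounts, filters and scalings, a constant prior variance, protein-coding genes alone, voom on recovered fragments, a replicate block and leaving out each library; a crossed pairing and a core with every LSM gene were added after seeing the data.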

Additional observations from a re-analysis of the deposited data

How the results depend on the processing

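No member passed an adjusted p under 0.05 in limma in any setting run, with adjusted p from 0.075 without GAP43 replicate 1 upward. The count of members lower at an unadjusted p under 0.05 was 1 (LSM6), and became 2 with a minimum mean of 5 FPKM or with equal medians, 0 with FPKM divided by its sum, and 5 with crossed pairing. With a constant prior variance it was 1, SNRPE in place of LSM6. Leaving out 1 library, which leaves a group of 1 that is assumed to vary like the other group, gave 0 to 35: it was 35 without GAP43 replicate 1, where 18.6% of all genes were lower, and 0 without GAP43 replicate 2, Control replicate 1 or Control replicate 2. Under voom 1 member was lower (SNRPE) and 1 higher (LSM11), and the count higher ran from 0 to 1 when a library was left out (SRSF5 without GAP43 replicate 1). Members with both GAP43 libraries below both controls numbered 43, 28 under voom and 46 to 54 with 1 library left out. Those above both numbered 3, with 5 for FPKM divided by its sum, 1 for equal medians, 7 under voom and 4 to 9 with 1 library left out. The SRSF median of 0.010 was 0.13 with FPKM divided by its sum, 0.16 under voom and -0.073 to 0.057 with 1 library left out. The regulators' median of -0.17 was -0.022 under voom, and that of the other LSM genes ran from -0.44 to -0.13 with 1 library left out. The core minus regulator difference of medians, -0.27, ran from -0.44 to -0.11. SRSF1 turned to 0.021 under voom, and leaving out 1 library gave -0.022 to 0.58 for SRSF5, -0.036 to 0.35 for SRSF2 and -0.036 to 0.10 for HNRNPA2B1. The FPKM were scaled to a depth other than the fragment totals, and the cause of these changes was not tested. The median of all genes moved from -0.038 to 0.067 with FPKM divided by its sum and to 0.10 under voom, and relative to it the Sm median was -0.47, -0.46 and -0.46 and the SRSF median 0.048, 0.060 and 0.062. With the replicate block, 1 member was lower, LSM10 in place of LSM6, and 152 of all genes but 0 members passed an adjusted p under 0.05; the block changed no group median. The crossed pairing, added after seeing the data, gave 5 lower members (LSM1, LSM6, LSM10, SNRPB2 and SNRPE). Of the group and count results over the alternatives, 187 kept their side or value and 25 did not. With 2 libraries per group, differences of the size of the standard errors given, 0.16 to 0.32, could not be resolved.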

Other observations

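Further lists of splicing genes had medians close to that of all genes tested, -0.038, with genes on both sides. The minor spliceosome, which removes a rare class of introns, had 9 tested proteins with a median log2 fold change of -0.066. In both GAP43 libraries 2 were below both controls (22.2%, against 24.1% of all genes tested). Above both were also 2 (22.2%, against 17.1%), and 0 passed an unadjusted p of 0.05 in limma. RNPC3, the minor spliceosome protein that bridges U11 and U12, had 2.68 and 2.25 FPKM in the controls against 2.88 and 3.89 FPKM, and SNRNP48 had 7.24 and 7.03 FPKM against 8.55 and 8.28 FPKM. Both were chosen after their values were seen.

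Among 30 other splicing regulators the median was -0.042, with 7 below both controls (23.3%, against 24.1% of all genes tested). Above both were 4 (13.3%, against 17.1% of all genes). MBNL3, of the muscleblind family, was the 1 that passed, with 2.67 and 2.45 FPKM in the controls against 1.72 and 1.24 FPKM (-0.53, SE 0.20, unadjusted p = 0.040 and adjusted p = 0.692 in limma). PTBP1, a repressor of exons and named here after its values were seen, had 126 and 137 FPKM against 120 and 104 FPKM. The near-identical copies SMN1 and SMN2, among the 14 tested assembly genes above, encode the SMN protein of snRNP assembly. SMN1 had 6.10 and 7.15 FPKM in the controls against 6.11 and 3.36 FPKM. SMN2 had 4.33 and 4.87 FPKM against 4.25 and 3.25 FPKM. How fragments were divided between SMN1 and SMN2 is uncertain, and both were named after their values were seen.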
